A study of Homo sapiens with 4 samples.

Results

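The genes described here encode plasma proteins that the liver secretes, namely ALB, AFP, RBP4, TTR, TF, FGA, FGB, FGG, APOH and AHSG. Members were chosen by gene name, as the probes whose annotated symbol was one of these 10. The names themselves had been selected on earlier results of the same comparison, among them the differences of FGG, RBP4 and ALB and the level of AFP. The differences between berberine and control samples are therefore a description. Of the 10 names 9 were found, on 14 of 26423 probes. RBP4 had 3 probes, FGA had 4, and ALB, AFP, TTR, FGB, FGG, APOH and AHSG had 1 each. TF had no probe under that symbol. One probe was named TRF, the mouse symbol of transferrin and also an older alias of 3 other human genes. It is given beside the members and is not counted among them.

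The study asked about berberine, a plant alkaloid, and the viability of HepG2, a human hepatocellular carcinoma cell line. There were 2 samples given 26.95 µM berberine for 24 hours and 2 control samples without it, each hybridised as Cy5-labelled amplified RNA to a one-colour array. Both groups are the same cell line, and no label names a genotype or vehicle. The description field conflicts with this, since it speaks of an MDI-induced differentiation and 48 hours for all samples and of 13.47 µM berberine for the treated ones. The titles and source names were followed. Nothing in the labels says that the replicates came from separate cultures, so a p-value reflects only how far these samples scatter, possibly for technical reasons alone.

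The probe identifiers and many symbols are those of a mouse array, among them 543 probes named OLFR, the mouse olfactory receptors. A value under a gene name is the signal of a probe designed for mouse, and how it hybridises with the human transcript was not tested. The median intensity was 77 and 85 in the berberine samples and 90 and 62 in the control samples. Control 2 stood apart at the low end, with a 5th percentile of 4 against 25 to 30 in the others and 269 probes below 0. The OLFR probes serve as a background level chosen with the data known, and whether any of their genes is expressed in these cells was not tested. Their median was 6.02 and their 95th percentile 9.23 on the normalized log2 scale.

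Hepatocytes make most proteins of blood plasma. Albumin is the main one and carries fatty acids, hormones and drugs, while alpha-fetoprotein (AFP) is its fetal relative and a marker of liver cancer that HepG2 cells are known to secrete. RBP4 carries retinol out of the liver and travels bound to transthyretin (TTR), which also carries thyroid hormone. FGA, FGB and FGG encode the alpha, beta and gamma chains of fibrinogen, which are assembled in the hepatocyte and form the clot. Transferrin carries iron, APOH is a phospholipid-binding glycoprotein, and AHSG, or fetuin-A, inhibits the deposition of calcium salts. In the human annotation ALB lies next to AFP on chromosome 4, and FGB, FGA and FGG follow one another on the same chromosome.

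Of the 14 member probes, 1 had a mean above the background level, the RBP4 probe PH_mM_0004442. The other 13 read between 1 and 519 in the 4 samples, and the means of both groups lay below the 95th percentile of the OLFR probes for each of them. Over all probes, 7.61% lay above that percentile. The probes of ALB and AFP were thus within the background range, that is, below that percentile. They stood far apart within it, with means above 86.7% of the OLFR probes for ALB and 14.0% for AFP. Of 21 measured genes among the hepatocyte markers that are not secreted, 3 had a probe above it, and of 72 probes for other plasma proteins 8 did. Since mouse probes were read, these signals neither establish nor contradict the labelled cell line, and HepG2 is used here as the submitters' name.

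**Figure D1:**
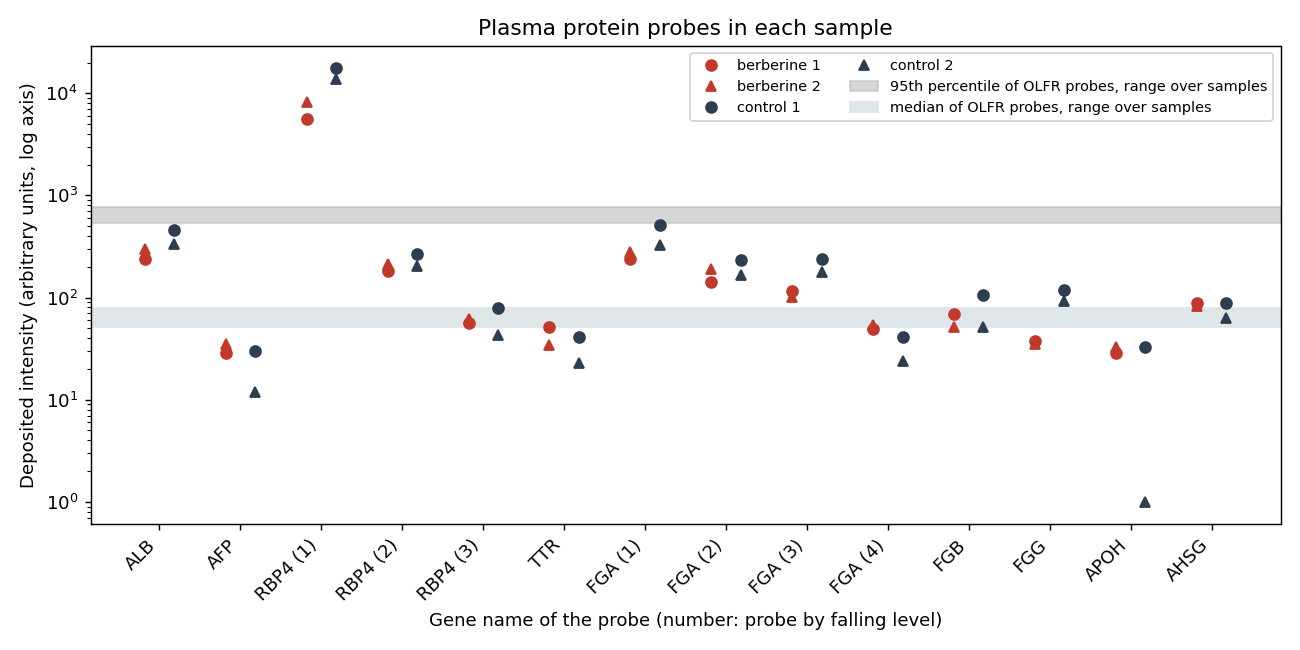
Deposited intensity (log axis) of the 14 member probes in berberine 1 and 2 (red) and control 1 and 2 (dark), with grey bands for the 95th percentile and the median of the OLFR probes in the 4 samples. RBP4 (1), at 5611 and 8161 in the berberine samples and 17823 and 13847 in the control samples, is the 1 probe above the upper band.

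RBP4 was the 1 member with a signal clear of the background, and it read lower in both berberine samples than in both controls. Probe PH_mM_0004442 read 5611 and 8161 in berberine 1 and 2, and 17823 and 13847 in control 1 and 2. Both berberine samples were low and both controls high, with no overlap of the groups. After normalization it averaged 12.81 ± 0.18 with berberine and 13.88 ± 0.07 in controls (log2 levels, SD, n = 2 per group), a difference of -1.08 (SE 0.147, 95% interval -1.48 to -0.67), or 0.473 of the control level. In bulk RNA of this kind, fewer cells making a transcript and less of it per cell cannot be told apart.

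The other RBP4 probes lay in the background range and differed less. PH_mM_0007269 read 181 and 211 with berberine and 269 and 202 in controls. Its log2 difference was -0.15 (SE 0.118, interval -0.48 to 0.17). PH_mM_0017584 read 56 and 62 with berberine and 79 and 43 in controls, a difference of -0.22 (SE 0.140, interval -0.61 to 0.17). As deposited, both probes had overlapping groups, and the second was at 0.01 without normalization. After normalization the groups did not overlap for any of the 3. All 3 differences were below 0, and the intervals of the 2 dimmer probes both included 0 while that of PH_mM_0004442 did not. Which RBP4 sequence each probe covers is not given in the sources used here.

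Transthyretin, the plasma partner of RBP4, showed no separation. Its probe mMC011315 read 51 and 34 with berberine and 41 and 23 in controls, so the groups overlapped. The log2 difference was 0.08 (SE 0.318, interval -0.80 to 0.96). It was -0.31 without berberine 1 and -0.09 without control 1.

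The albumin probe PH_mM_0000644 read 239 and 299 with berberine and 461 and 338 in controls. The groups did not overlap, and the log2 means were 8.15 ± 0.07 with berberine and 8.56 ± 0.14 in controls (SD, n = 2 in each group). The difference was -0.41 (SE 0.134, interval -0.78 to -0.04), with both means in the background range. The probe of its neighbour AFP, mMC007440, read 29 and 35 with berberine and 30 and 12 in controls, and the groups overlapped. Its mean level, 4.75, was below the OLFR median. The AFP difference was 0.10 (SE 0.197, interval -0.44 to 0.64), and its sign turned to -0.03 without berberine 2 and -0.09 without control 1. The TRF probe, outside the member count, read 201 and 237 with berberine and 268 and 199 in controls, with a log2 difference of 0.05.

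The 3 fibrinogen chains did not give 1 picture. FGG, the gamma chain, read 38 and 35 with berberine and 118 and 93 in controls, so both control samples stood above both berberine samples. On the log2 scale it averaged 4.99 ± 0.08 with berberine and 6.76 ± 0.06 in controls (SD, n = 2 in each group), a difference of -1.77 (SE 0.122, interval -2.11 to -1.44). This was the most negative difference among the 14 probes. Both group means lay within the range of the OLFR probes, 46.4% of which had lower means than FGG, so no fold is given.

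FGA, the alpha chain, had 4 probes that differed from one another. PH_mM_0012810 read 115 and 102 with berberine and 241 and 179 in controls, a log2 difference of -0.90 (SE 0.190, interval -1.42 to -0.38). PH_mM_0007319 read 238 and 278 with berberine and 519 and 327 in controls, a difference of -0.54 (SE 0.184, interval -1.04 to -0.03). For these probes the groups did not overlap. PH_mM_0000609 read 143 and 191 with berberine and 231 and 168 in controls, with overlapping groups and a difference of -0.18 (SE 0.152). PH_mM_0016222 went the other way, at 49 and 54 with berberine and 41 and 24 in controls, with groups apart and a difference of 0.39 (SE 0.174, interval -0.09 to 0.87). The mean of the 4 differences was -0.31. FGB, the beta chain, read 69 and 51 with berberine and 107 and 51 in controls. One control thus equalled a berberine sample as deposited, and the log2 difference was -0.45 (SE 0.276, interval -1.21 to 0.32).

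APOH and AHSG, the remaining glycoproteins, had overlapping groups. The APOH probe mMC007762 read 29 and 33 with berberine and 33 and 1 in controls. Its difference of 0.45 (SE 0.326, interval -0.45 to 1.34) rested on control 2, the sample with the low background, and was 0.02 without it. The AHSG probe PH_mM_0004216 read 88 and 83 with berberine and 88 and 63 in controls, with a difference of 0.10 (SE 0.146, interval -0.31 to 0.50) that was -0.03 without berberine 1.

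**Figure D2:**
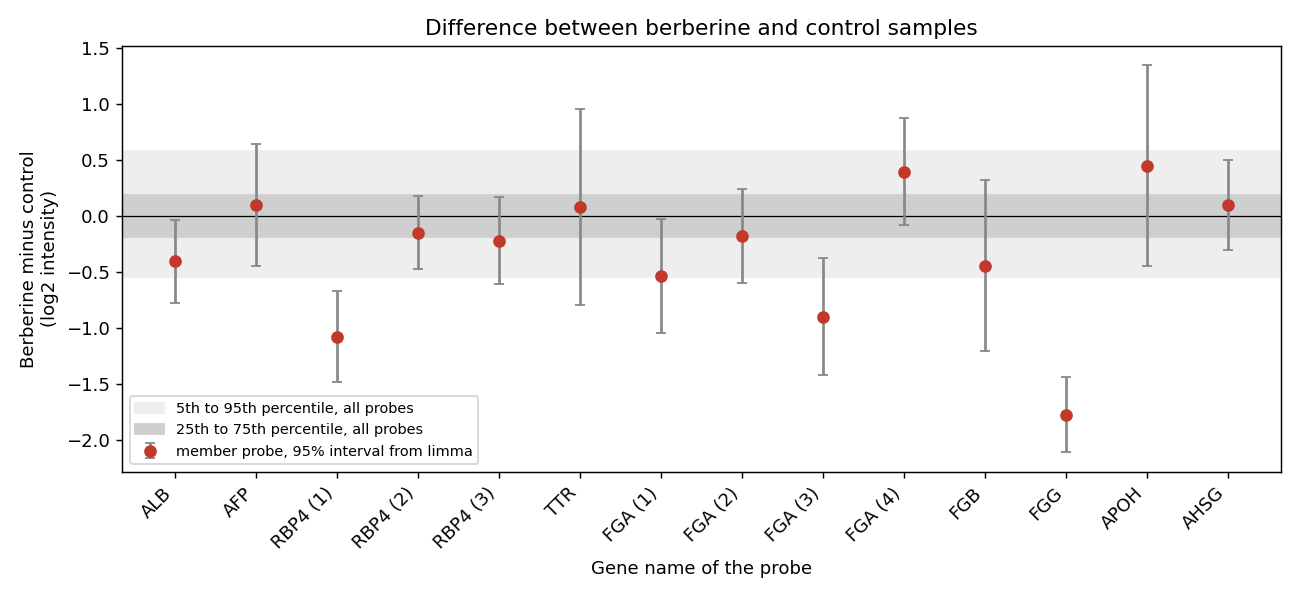
Difference between berberine and control samples (log2 intensity, quantile normalized) for each member probe, with 95% intervals from limma over 2 samples in each group and grey bands for the 5th to 95th and 25th to 75th percentiles of all 26423 probes. FGG at -1.77, RBP4 (1) at -1.08 and FGA (3) at -0.90 lie below the wide band, which runs from -0.55 to 0.58.

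Counted together, 9 member probes had a difference below 0 and 5 above 0, with a median of -0.20, beside -0.01 over all probes. Without PH_mM_0004442 the median was -0.18. The groups did not overlap with berberine lower for 7 of the 14 (ALB, FGG, all 3 RBP4 probes and 2 of FGA), where 22.5% of all probes behaved so. They did not overlap with berberine higher for 1 (FGA PH_mM_0016222), where the share over all probes was 21.0%. As deposited, 5 probes were lower with groups apart, beside 11.1% of all probes on that scale, and 1 was higher, beside 11.4%. Several of these probes share a gene, so they are not separate observations, and nothing is read from the counts because the genes were named with this contrast known.

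In limma's fit over all 26423 probes with Benjamini-Hochberg adjustment, 0 of the 14 member probes and 0% of all probes passed an adjusted p of 0.05. At an unadjusted limma p under 0.05 there were 5 member probes, all lower (RBP4 PH_mM_0004442, FGG, ALB and 2 of FGA), beside 5.65% of all probes lower. Over the whole table that unadjusted threshold took 3101 probes, 1608 higher and 1493 lower. When limma's variance was allowed to depend on intensity (the trend fit), FGG and RBP4 PH_mM_0004442 passed as lower, 2 of 14, beside 0.367% of all probes lower. Their limma adjusted p-values were 0.0175 and 0.0261 with the trend and 0.105 and 0.177 without it. When any 1 of the samples was left out, 1 group held a single array, so whether a call of the trend fit depends on that sample cannot be read. The differences then ran from -1.83 to -1.72 for FGG and from -1.21 to -0.95 for RBP4 PH_mM_0004442. Of the 543 OLFR probes, 2 passed the trend fit, 1 in each direction, where 186 of all 26423 probes passed as higher and 97 as lower. An exact permutation test of a single probe in this design cannot go below 0.333.

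**Figure D3:**
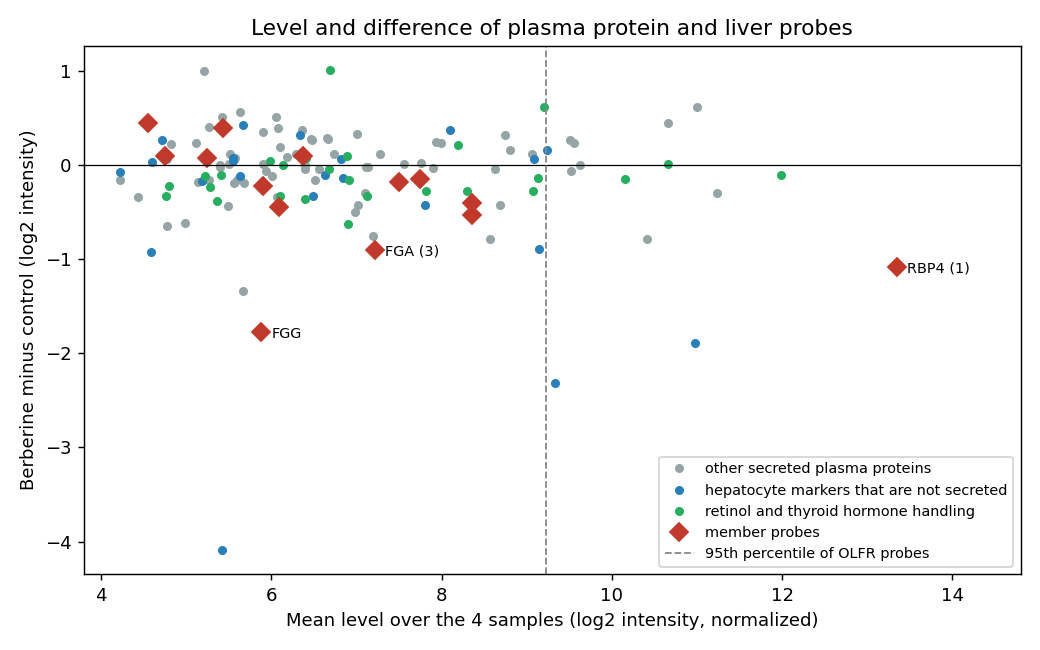
Mean normalized level over the 4 samples (log2 intensity) against the difference between berberine and control samples (log2 intensity) for the 14 member probes, other secreted plasma proteins, hepatocyte markers that are not secreted, and genes of retinol and thyroid hormone handling. Of the members, RBP4 (1) alone lies right of the dashed line, the 95th percentile of the OLFR probes at 9.23.

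The wider group of secreted plasma proteins did not share the direction of RBP4 and FGG in its median. Of 77 other genes listed, among them apolipoproteins, clotting factors, protease inhibitors and complement, 62 were measured on 72 probes. Their median log2 difference was 0.01, with 38 probes above 0 and 34 below, and 8 probes lay above the background level. None passed the limma adjusted p of 0.05 over all probes. At an unadjusted limma p under 0.05 there were 11, 5 higher and 6 lower, beside 11.7% of all probes in either direction. The trend fit called 1, as lower, beside 0.367% of all probes. That one was LCAT, the plasma enzyme that esterifies cholesterol, which read 917 and 968 with berberine and 2087 and 1777 in controls, a difference of -0.79 (SE 0.128). F2, the clotting factor prothrombin, had the highest positive difference of the 8, at 0.62 (SE 0.382). It read 2359 and 2403 with berberine and 1354 and 2286 in controls, so control 2 lay close to the berberine samples.

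Genes that handle the cargo of RBP4 and TTR gave mostly small differences below 0. Of 27 listed genes 23 were measured on 26 probes, with a median difference of -0.14. The groups did not overlap with berberine lower for 14 of them, beside 22.5% of all probes, yet 0 passed the limma adjusted p, the unadjusted p or the trend fit. Above the background level, the retinoid receptor RARG was at 0.01 (SE 0.112) and its partner RXRB at -0.15 (SE 0.119). RXRB read 916 and 1063 with berberine and 1460 and 1168 in controls. RARG read 1376 and 1580 with berberine and 1890 and 1619 in controls, so its groups lay apart as deposited and overlapped after normalization. CRABP1, also above background, read 3294 and 3828 with berberine and 4917 and 4050 in controls. Its groups did not overlap, and the difference was -0.11.

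For iron, the cargo of transferrin, 11 of 13 genes were measured, and the median difference was -0.12. Of the 13 probes 0 passed either limma fit, while 3 had an unadjusted limma p under 0.05, beside 11.7% of all probes. The ferritin heavy chain gene FTH1, which encodes part of the iron store of the cell, read 32882 and 47337 with berberine and 28425 and 25013 in controls. Its groups did not overlap, and the difference was 0.47 (SE 0.165). Fibrinogen is an acute phase protein, induced through interleukin-6 signalling and C/EBP factors. All 13 genes of that signalling list were measured, on 17 probes with a median difference of 0.22. Of these, 0 passed the limma adjusted p without the trend, while 4 had an unadjusted limma p under 0.05, beside 11.7% of all probes. CEBPB, a C/EBP factor, read 10650 and 13722 with berberine and 4955 and 4010 in controls, at 1.58 (SE 0.122). It passed the trend fit as higher (limma adjusted p = 0.00615 with the trend, 0.116 without), beside 186 of all 26423 probes. CEBPD, the other C/EBP factor of the list, lay in the background range, at -0.07 with overlapping groups. Of the 17 probes, 13 had a difference above 0 and 4 below. How these values bear on the fibrinogen probes was not tested.

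Other liver and cell type markers are given beside the RBP4 signal. Sums are of deposited intensities, which over all probes came to 6788054 and 7894712 with berberine and 8742273 and 7031570 in controls. The summed intensity of the 22 probes for hepatocyte markers that are not secreted was 3624 to 4625 with berberine and 8165 to 10375 in controls. After normalization, however, their median difference was -0.09, with 10 probes above 0 and 12 below. Without CEBPA, FABP1 and KRT8 the sums were 2459 and 3311 with berberine and 3651 and 2974 in controls, which overlap. These 3 probes passed the trend fit as lower, beside 0.367% of all probes, and 0 of the list passed without the trend. At an unadjusted limma p under 0.05 there were 8, of which 2 were higher and 6 lower, beside 11.7% of all probes. CEBPA, a hepatocyte transcription factor, read 906 and 1007 with berberine and 4727 and 3678 in controls, a difference of -1.89. FABP1, the liver fatty acid binding protein, read 241 and 300 with berberine and 1783 and 1364 in controls. KRT8, an epithelial keratin, read 18 and 7 with berberine and 214 and 149 in controls. The berberine mean of FABP1 and both means of KRT8 lay in the background range, so no fold is given. CEBPA and KRT8 were picked after their values were seen. HPD, an enzyme of tyrosine breakdown, had the highest positive difference of the list above background, at 0.16 (interval -0.40 to 0.72). It read 467 and 744 with berberine and 697 and 532 in controls, with overlapping groups. Its control mean lay in the background range. KRT18, the keratin partner of KRT8, read between 4 and 28 in all samples, at a difference of -0.08. How far these shifts bear on RBP4 was not tested.

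Because the description field speaks of differentiation, adipocyte and fibroblast markers were read too, since adipocytes also make RBP4. All 17 adipocyte genes were measured on 19 probes, 3 of which lay above background. As deposited, their summed intensity was 3719 to 5056 with berberine and 5475 to 5909 in controls. After normalization the median difference was -0.18, with 4 probes above 0 and 15 below. The groups did not overlap with berberine lower for 8 and higher for 3, beside 22.5% and 21.0% of all probes. CD36, the fatty acid transporter, had the most negative difference among those 3, at -0.46 (SE 0.672), and read 611 and 1645 with berberine and 1050 and 2461 in controls. The defining adipocyte genes ADIPOQ and FABP4 lay in the background range, at mean levels of 6.65 and 6.52, and had opposite signs. ADIPOQ read 67 and 103 with berberine and 145 and 104 in controls, a difference of -0.64. FABP4 read 126 and 131 with berberine and 79 and 43 in controls, a difference of 1.00, the highest of the list. RETN, in the background range at a mean of 6.49, had the lowest of the list, at -1.20. It read 58 and 65 with berberine and 126 and 151 in controls. Of 13 fibroblast genes 12 were measured on 14 probes, with a median difference of 0.03, 8 probes above 0 and 6 below. As deposited, the summed intensities of the fibroblast probes were 3677 to 3698 with berberine and 2410 to 2425 in controls. Without FN1 they were 1282 and 1359 with berberine and 1426 and 962 in controls, which overlap. FN1, fibronectin, which the liver also secretes, was the 1 probe above background, at 2416 and 2318 with berberine and 984 and 1463 in controls, a difference of 1.18 (SE 0.311). No marker was listed at 0, and 0 of the adipocyte and fibroblast probes passed either limma fit. At an unadjusted limma p under 0.05 there were 4 adipocyte and 2 fibroblast probes, beside 11.7% of all probes. Their part in the RBP4 difference was not tested.

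The genes whose profile over the 4 samples was nearest to that of RBP4 PH_mM_0004442 were BOLA2, AHDC1 and RDBP. The measure was the root mean square difference of the mean-centred log2 levels, over 1637 named probes above background. BOLA2 differed by 0.040, with 4581 and 6716 in berberine samples and 14642 and 11514 in controls. AHDC1 and RDBP were each at 0.069, and that their groups lay apart followed from the selection by likeness. AHDC1 read 421 and 532 with berberine, within the background range, and 1376 and 1110 in controls. RDBP read 3027 and 3832 with berberine and 8648 and 6704 in controls. With 4 samples such a likeness is a description.

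**Figure D4:**
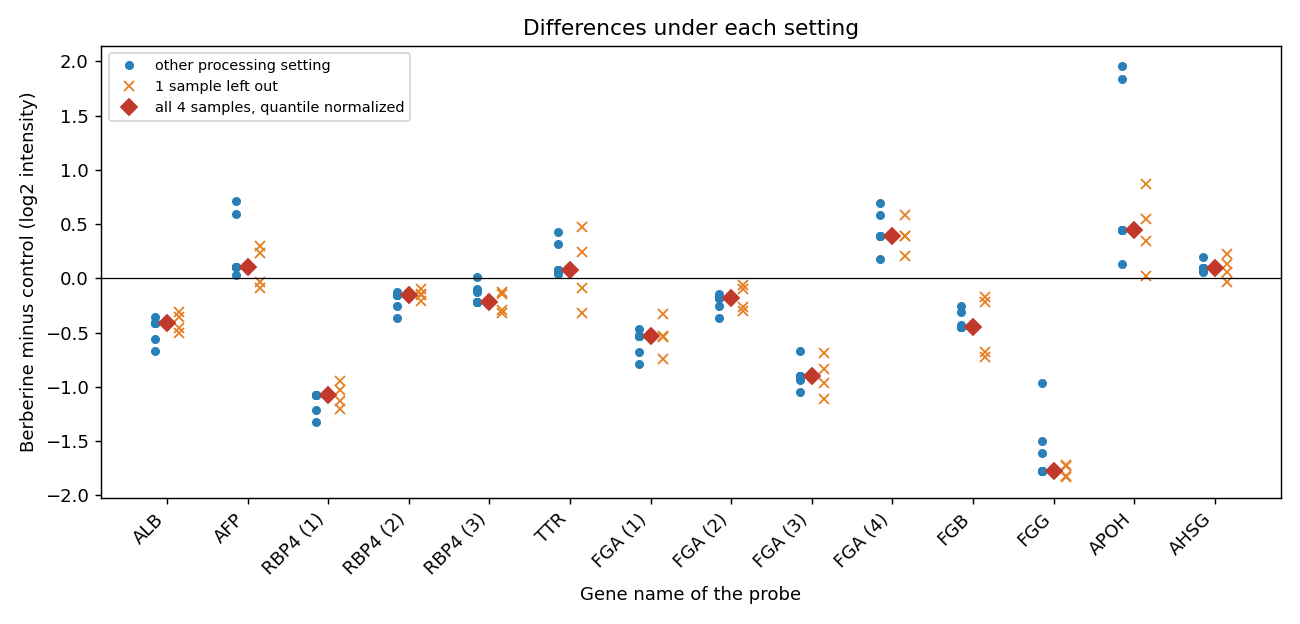
Difference between berberine and control samples (log2 intensity) for each member probe as reported (diamonds), under other processing settings (circles) and with 1 sample left out (crosses). RBP4 (1) stays between -1.33 and -0.95 and FGG between -1.83 and -0.96, while AFP, TTR, AHSG and RBP4 (3) cross 0.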

How the data were processed

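The deposited table holds 1 intensity per probe and sample, as whole numbers on a linear scale that per the file's values may fall below 0. The authors' scanning, background correction and normalization steps were not given in the sources used here. Per the labels' protocols, total RNA was extracted with a column kit. Names came from the platform annotation (20377 probes with 1 symbol, 6046 with none), and lists were also matched through older human symbols.

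The log2 medians as deposited spanned 0.53, more than the 0.2 the design allowed, so the 4 columns were quantile normalized, values under 0 were raised to 0, and levels are log2(value + 1). Every probe was 1 row in limma 3.58.1 (R 4.3.3, lmFit, eBayes without a trend, 4 samples, 2 residual degrees of freedom, 2-sided, Benjamini-Hochberg over 26423 probes, threshold 0.05). The fit was tested on simulated data in which only bright probes were changed, which does not cover the dim levels of most member probes. The number of arrays limits the precision. Figures used matplotlib 3.10.9.

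The text names every member probe and each list's probes past the threshold (at most 3). It also names each list's largest rise and fall above the OLFR 95th percentile, and the 3 profiles nearest to the member with the highest mean. ADIPOQ, FABP4, RETN, CEBPA, CEBPD, CRABP1, KRT8, KRT18 and TRF were added after their values were seen. Members and lists were chosen with earlier results of these data known. The alternatives were other scalings, pseudocounts, filters, variance models, probe summaries, a replicate block and leaving out each sample. Same-numbered samples share only a number in the labels.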

Additional observations from a re-analysis of the deposited data

How the results depend on the processing

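Of 180 values of the member probes under alternatives, 162 stayed within 1 SD of the replicates, 18 moved further, and 6, from 4 probes (AFP, TTR, AHSG and RBP4 PH_mM_0017584), changed sign. By construction the variance models, probe selections and replicate block leave a probe's difference unchanged, as does the gene mean where a gene has 1 probe. Such values are among the 162, so that count overstates how stable the differences are. RBP4 PH_mM_0004442 ranged from -1.33 (median centring) to -0.95 and FGG from -1.83 to -0.96 (pseudocount of 50), with limma adjusted p-values of 0.0261 to 1.00 and 0.0175 to 1.00. Values as deposited shifted the median of all probes to 0.11. The count of probes past the threshold, 0 here, was 283 with an intensity trend, 259 with a pseudocount of 50, 67 without the dimmest 30% of probes, 3 with named probes only, 9 with the highest-mean probe of each gene and 8 with the mean of a gene's probes. Member probes passing numbered 2 (FGG and RBP4) with the trend and with the pseudocount of 50, and 1 (FGG) without the dim probes. Leaving out a sample left 1 group with a single array, so only the differences are read from those fits. The trend fit without each sample, the marker sums without single genes and the 90th percentile of the OLFR probes were added after seeing the data. By that percentile, too, 1 member probe lay above background. With the replicate block, 0 probes passed (2557 at an unadjusted limma p under 0.05). Same-numbered deviations correlated at 0.084 across probes, and the labels give no other sign of pairing. At the signals of 13 of the 14 probes, no detection call separates a transcript from background.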
